A study of Mus musculus with 9 samples.

Results

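The 10 genes described here, Ccnd2, Ccnd3, Cdk4, Cdk6, Cdkn1a, Cdkn1b, Cdkn2c, Cdkn2d, Rb1 and Rbl2, regulate the step from rest into the cell cycle. They were chosen by name, with earlier results of these data known, from 24060 genes in the expression table, and all 10 were among the 12115 genes tested. Their mRNA was measured in unstimulated CD8 T cells of 3 mouse lines, Rop7-I, Rop7-II and Rop7-III. Each line carries the rearranged genes of 1 T-cell receptor for the same Toxoplasma epitope on H-2Ld. The paper reports that some T cells of every line lack this receptor after secondary rearrangement, and the sort described below selected cells that bind the epitope. The lines were made by transfer of the nucleus of a CD8 T cell, so that each line goes back to a single donor cell, and they had been crossed to BALB/c mice and made homozygous for both chains of the receptor. A difference between lines can therefore not be told apart from other heritable differences between the 3 founder cells. Splenocytes of all lines were kept overnight with IL-2 at 10 ng/ml and no antigen, and CD3+ CD8+ H-2Ld-Rop7+ cells were then sorted to a purity of 90 to 95%. Each clone has 3 biological replicates, 9 samples in all, and the age and sex of the mice are not given in the labels. Values are in TPM, the share of a gene in the transcripts of a sample after division by gene length, and levels of different genes can therefore be compared. TPM do not keep the number of reads behind a value, so that counting error could not be set apart from the spread between replicates.

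A resting lymphocyte enters the cell cycle when D-type cyclins bind and activate the kinases CDK4 and CDK6, which phosphorylate the pocket proteins RB and p130 and so release the transcription factors of the E2F family. INK4 inhibitors, among them p18 (Cdkn2c) and p19 (Cdkn2d), bind CDK4 and CDK6 alone. Cip/Kip inhibitors, p21 (Cdkn1a) and p27 (Cdkn1b), bind cyclin and kinase together and block CDK2 in particular. In T cells p27 is high at rest and is destroyed as protein after activation, and p18 restrains the response to stimulation of the receptor.

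The promoters of the 3 genes with a difference past the test in a pair of clones are given first, since these are the genes on which the results turn. RefSeq promoter sequences, from 250 bases before to 50 bases after a start site on GRCm38.p6, were at hand for 8 of the 10 genes in 11 windows, and not for Ccnd2 and Rb1. Both strands were searched for short sequence motifs. The E2F motif was written as TTCGCGC, with the further forms TTGGCGC and also TTCCCGC. The FOXO motif was TGTTTAC. The E-box that MYC can bind was CACGTG. The motif of SP and KLF factors was GGGCGGG, and that of CHR, an element of cell cycle genes, was TTTGAA. No match overlapped a match of another motif. The 250 bases before the start site are written 5′ to 3′ on the strand of the gene, with matches in capitals, for Cdk4 at chr10:127063285-127063534 on the plus strand, Cdkn1b at chr6:134920151-134920400 on the plus strand and the outer start of Cdkn2c at chr4:109666757-109667006 on the minus strand.
Cdk4: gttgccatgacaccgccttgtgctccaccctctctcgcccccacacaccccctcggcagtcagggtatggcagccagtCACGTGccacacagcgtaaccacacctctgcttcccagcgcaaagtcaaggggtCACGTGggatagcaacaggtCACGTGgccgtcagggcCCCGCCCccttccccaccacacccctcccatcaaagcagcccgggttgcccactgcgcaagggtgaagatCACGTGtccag
Cdkn1b: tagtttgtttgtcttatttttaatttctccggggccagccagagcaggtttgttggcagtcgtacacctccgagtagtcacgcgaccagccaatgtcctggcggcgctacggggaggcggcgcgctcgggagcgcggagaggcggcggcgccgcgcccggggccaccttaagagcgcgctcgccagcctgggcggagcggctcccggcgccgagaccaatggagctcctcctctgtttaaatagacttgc
Cdkn2c: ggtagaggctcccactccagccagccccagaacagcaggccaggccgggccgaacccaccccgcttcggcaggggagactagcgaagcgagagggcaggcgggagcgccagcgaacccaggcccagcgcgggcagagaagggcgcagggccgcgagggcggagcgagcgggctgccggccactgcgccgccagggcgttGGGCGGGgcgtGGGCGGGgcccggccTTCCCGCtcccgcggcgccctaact
The Cdk4 window held CACGTG 4 times, with first bases at -172, -118, -98 and -11 from the start site. A window of this length held CACGTG at least once in 7.15% of 32851 promoter windows, and at least 4 times in 8 windows (0.0244%). The count of 4 was taken from the Cdk4 window itself, the highest of the 11 windows, so that this share describes and tests nothing. The window of the outer start of Cdkn2c held TTCCCGC once, at -25, and an E2F motif stood in 8.07% of all windows. GGGCGGG stood 3 times in the same Cdkn2c window, 2 of them before the start site, and in 25.6% of all windows. The inner start of Cdkn2c held CACGTG once, 35 bases into the transcript. In the Cdkn1b window none of these motifs occurred. Among the other genes, TGTTTAC stood once in a Ccnd3 window (3.65% of all windows), CACGTG once in the Cdk6 window and the CHR motif once in the Rbl2 window (17.9% of all windows). Cdkn2d held GGGCGGG or its reverse complement 5 times and the Cdk4 window held it 3 times. Each of the 2 Ccnd3 windows held it 2 times, as did the second Cdkn1a window. These matches describe letters and not binding.

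The labelled cell type was checked first. All 8 CD8 T-cell markers were present in every sample, at a summed level of 7594 to 8426 TPM. Markers of other cells were lower but not absent. The 13 B-cell markers in the table summed to between 148 and 2409 TPM and the 9 myeloid markers to between 35.6 and 656 TPM, and Rop7-II replicate 1 was the highest sample in 13 of 13 and 9 of 9 of them. By clone the B-cell sum was 393 to 1032 TPM in Rop7-I, 188 to 2409 TPM in Rop7-II and 148 to 312 TPM in Rop7-III. Every Rop7-I sample was thus above every Rop7-III sample in B-cell markers. Markers of CD4 T cells summed to between 2.39 and 19.1 TPM and those of NK cells to between 0.05 and 1.70 TPM. Erythroid markers reached 1408 TPM in Rop7-I replicate 2 and were 15.2 TPM at the lowest, with Hbb-bs at 0 in all samples. Memory-like CD8 markers summed to 141 to 155 TPM for Rop7-III samples, 110 to 116 TPM for Rop7-I samples and 90.6 to 105 TPM for those of Rop7-II, and 3 of these 7 markers, Ccl5, Cxcr3 and Cd44, were higher in each Rop7-III sample than in the other 6. The other 4 were not. For Cd44 the margin was narrow, with the lowest Rop7-III sample at 9.52 TPM and Rop7-II replicate 1 at 9.51 TPM. Eomes was at 12.35 to 17.46 TPM in Rop7-I samples and 5.30 to 7.62 TPM in Rop7-III samples, Ly6c1 and Ly6c2 were highest in Rop7-II replicate 1, and Il2rb overlapped between clones. Their part in the results below was not tested. In bulk samples, fewer cells of a type and less RNA per cell cannot be told apart.

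The 10 genes spanned a wide range of levels. Cdkn1b was the highest, with a mean of 327 TPM over the 9 samples, followed by Ccnd3 at 174, Cdk4 at 129, Cdkn2d at 119, Rbl2 at 89.7, Rb1 at 67.4 and Ccnd2 at 62.5 TPM. Cdk6 had a mean of 12.2 TPM, Cdkn2c of 5.11 TPM and Cdkn1a of 1.08 TPM. Among the 12115 genes tested, ranked from the highest mean level, Cdkn1b held rank 419 and Cdkn1a rank 11244. The sample ranges of neighbours in this order overlapped for Cdk4 and Cdkn2d, for Rb1 and Ccnd2 and for Cdkn2c and Cdkn1a, so that these pairs were not separated in level. Every sample thus had p27 as its most abundant G1 inhibitor transcript and the D3 cyclin, CDK4 and p130 transcripts ahead of their partners D2 cyclin, CDK6 and RB. The share of Cdk4 in the sum of both kinases was 89.5 to 92.9%, and the ratio of Ccnd3 to Ccnd2 was 2.49 to 3.51.

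**Figure D1:**
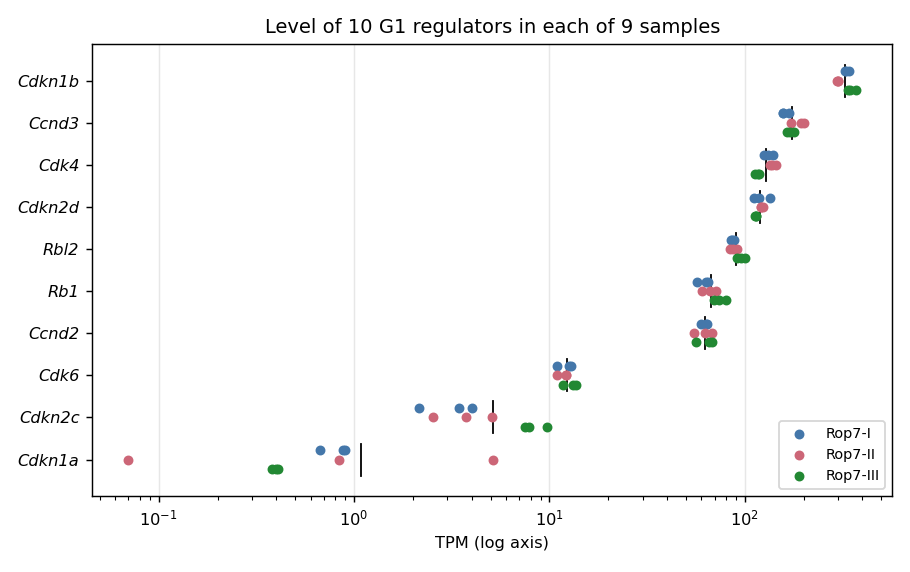
Level of each of the 10 genes in TPM on a log axis, ordered by mean, with 1 point for each of the 9 samples, coloured by clone, and a black line at the mean over all samples. Levels run from 0.07 TPM for Cdkn1a in a Rop7-II sample to 371 TPM for Cdkn1b in a Rop7-III sample, and 7 of the 10 genes lie above 50 TPM in every sample.

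For each pair of clones, the test was limma on log2(TPM + 1) over all 12115 genes, and a gene passed at a Benjamini-Hochberg adjusted p under 0.01. Between Rop7-III and Rop7-II, 2 of the 10 genes passed, Cdkn1b as higher and Cdk4 as lower in Rop7-III. Of all tested genes 12.3% passed in this pair, 6.39% as higher and 5.89% as lower, so that the count lies near the background. Without Rop7-II replicate 1, Cdkn2c passed as well and the count was 3. Between Rop7-III and Rop7-I, 1 of the 10 passed, Cdkn2c, against 4.85% of all tested genes, 2.58% as higher and 2.28% as lower in Rop7-III. In this pair 4 of the 10 had an unadjusted p under 0.05, as did 28% of all tested genes. Between Rop7-I and Rop7-II, limma called 0 of the 10, against 7.53% of all tested genes (3.67% as higher and 3.85% as lower in Rop7-I), while 2 of them, Ccnd3 and Cdkn1b, had an unadjusted p under 0.05, as did 32.1% of all tested genes. At an additional 2-fold minimum, 1 gene remained in any pair, Cdkn2c in Rop7-III against Rop7-I, where 1.06% of all tested genes passed this rule. It was 0 of 10 between Rop7-I and Rop7-II, against 0.949% of all tested genes. It was also 0 of 10 between Rop7-III and Rop7-II, where 6 of the 10 had an unadjusted p under 0.05 and the shares of all tested genes were 1.7% for the first rule and 37.8% for the second. An F test over the 3 clones passed for 3 of the 10, Cdk4, Cdkn1b and Cdkn2c, against 14.1% of all tested genes. This count was 0 to 2 when any single sample was left out, 0 without the trend of the spread and 1 with the replicate block. The label says biological replicate but not whether each is a separate mouse, so that the p-values measure the spread between these samples.

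Differences were small for most of the 10 genes. The median log2 difference of the 10 genes was 0.07 for Rop7-III against Rop7-II, 0.08 for Rop7-III against Rop7-I and -0.04 for Rop7-I against Rop7-II, beside -0.02, -0.00 and -0.01 over all tested genes. Regardless of sign the medians were 0.15, 0.12 and 0.09 for the 10 genes and 0.13, 0.10 and 0.12 for all. The spread within clones was as small as 0.05 on the log2 scale for Cdk4, Cdkn1b and Rbl2, 0.32 for Cdkn2c and 0.75 for Cdkn1a, against a median of 0.09 over all tested genes. A change of the same size is therefore much better resolved in Cdkn1b than in Cdkn2c.

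**Figure D2:**
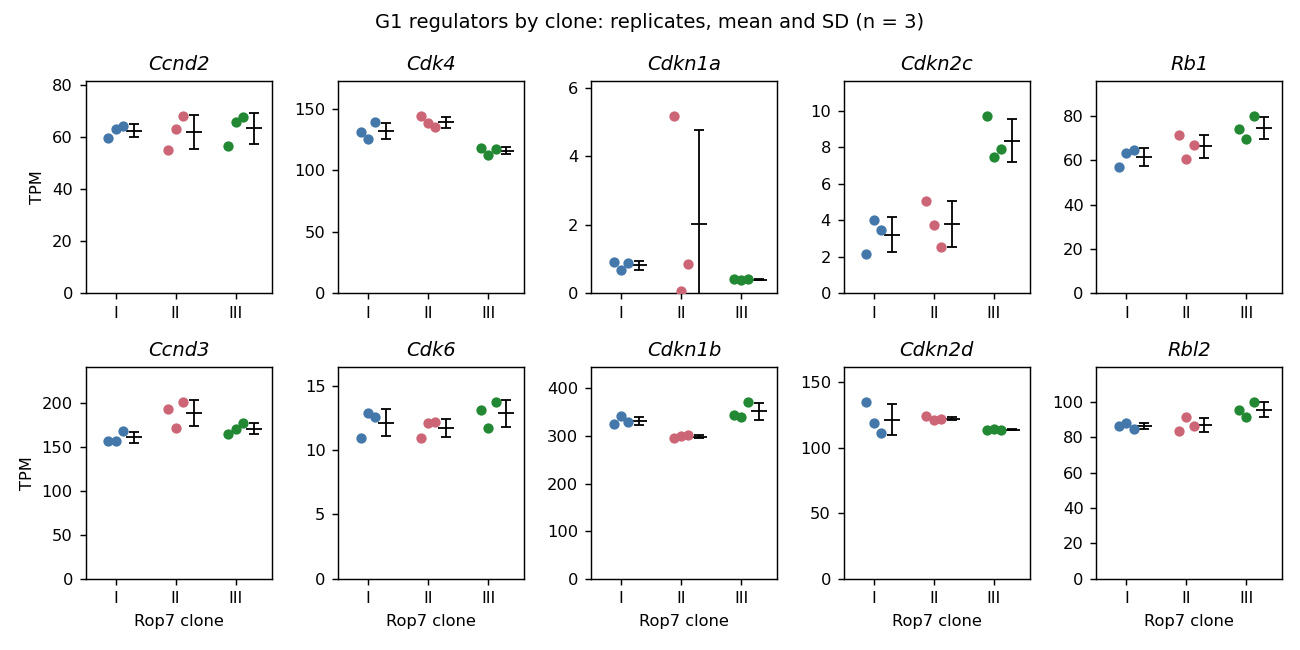
TPM of each of the 10 genes by clone on linear axes that start at 0, with 1 point per replicate and beside them the mean and SD of 3 replicates. All 3 Rop7-III points lie below the other 6 for Cdk4 and above them for Cdkn2c and Rbl2, and the wide bar of Cdkn1a in Rop7-II, which would reach below 0, comes from a single sample at 5.17 TPM.

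D-type cyclins are the part of the machinery that responds to growth signals. Ccnd2, cyclin D2 (chromosome 6, 127125162 to 127152188), was at 59.6, 63.2 and 64.3 TPM in the Rop7-I samples, 55.1, 62.9 and 67.9 TPM in those of Rop7-II and 56.4, 65.5 and 67.7 TPM in those of Rop7-III. The 3 clones overlapped fully, and their means were 62.3 ± 2.43, 61.9 ± 6.43 and 63.2 ± 5.98 TPM (SD, n = 3 each). The log2 difference of Rop7-III from Rop7-II was 0.03 with a 95% interval of -0.16 to 0.22 (limma adjusted p = 0.822), and that from Rop7-I was 0.02, with an interval of -0.17 to 0.21. No difference in Ccnd2 was seen in these data, within those limits.

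Ccnd3, cyclin D3 (chromosome 17, 47505051 to 47599689), the cyclin D that developing lymphocytes depend on most, was at 157, 157 and 169 TPM in Rop7-I. Rop7-II had 193, 172 and 201 TPM and Rop7-III 164, 171 and 178 TPM. Every Rop7-I sample was thus below every Rop7-II sample, with Rop7-III between and overlapping both. The log2 difference of Rop7-I from Rop7-II was -0.23 ± 0.06 (SE), with a limma adjusted p of 0.0277, which missed the threshold. Without Rop7-II replicate 2, the lowest of its clone, it was -0.29 with an adjusted p of 0.00498. Rop7-III differed from Rop7-II by -0.14 (adjusted p = 0.113) and from Rop7-I by 0.09 (adjusted p = 0.379). The sum of both cyclins was 223 ± 8.41 TPM in Rop7-I, 251 ± 17.2 in Rop7-II and 234 ± 12.4 in Rop7-III, and Ccnd2 made up 22.2 to 28.7% of it. Ccnd3 shares 359 bases of its gene bounds, introns included, with Bysl, a gene of ribosome assembly at 5.86 to 6.82 TPM by clone mean. Reads of the non-stranded libraries could be confused only where exons of both overlap, which was not examined.

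Of the kinases, Cdk4 (chromosome 10, 127063535 to 127067288), the catalytic partner of the D cyclins, was the lowest in Rop7-III. It was at 131, 126 and 139 TPM in the Rop7-I samples, 144, 138 and 135 TPM in those of Rop7-II and 118, 113 and 117 TPM in those of Rop7-III. All 3 Rop7-III samples were below the other 6, a pattern seen in 8.91% of all tested genes and in 1 of the 10 described here. The means were 132 ± 6.74, 139 ± 4.42 and 116 ± 2.95 TPM (SD, n = 3 each). Against Rop7-II, Cdk4 fell by 0.26 on the log2 scale (SE 0.04, 95% interval -0.36 to -0.16, limma adjusted p = 0.00250). In TPM the mean fell by 16.6%. Without Rop7-III replicate 2, its lowest sample, the difference was -0.24 with an adjusted p of 0.0130. Against Rop7-I the difference was -0.18 with an interval of -0.28 to -0.09 and an adjusted p of 0.0233, which did not pass. Rop7-I and Rop7-II differed by -0.08 (adjusted p = 0.260).

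Cdk6 (chromosome 5, 3341004 to 3531008), the second kinase of the D cyclins, was at 10.97, 12.9 and 12.6 TPM in the Rop7-I samples, 10.9, 12.1 and 12.2 TPM in those of Rop7-II and 13.1, 11.7 and 13.7 TPM in those of Rop7-III. The clones overlapped. Rop7-III was 0.12 from Rop7-II on the log2 scale with a 95% interval of -0.07 to 0.31 (limma adjusted p = 0.339), and a decrease of the size found for Cdk4 against Rop7-II lies outside this interval. The ratio of Cdk4 to Cdk6 ran from 8.55 to 13.2 over the samples.

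Cdkn1b, which encodes p27 (chromosome 6, 134920401 to 134925525), the inhibitor that marks resting T cells, had the smallest p of the 10 genes in the F test (limma adjusted p = 0.00430). It was at 326, 341 and 329 TPM in the Rop7-I samples, 295, 299 and 301 TPM in those of Rop7-II and 344, 339 and 371 TPM in those of Rop7-III. Rop7-II was the lowest clone, with all its samples below the other 6, and Rop7-I and Rop7-III overlapped. The means were 332 ± 8.15, 299 ± 3.29 and 352 ± 17.3 TPM (SD, n = 3 each). Against Rop7-II, Cdkn1b rose by 0.23 on the log2 scale in Rop7-III (SE 0.04, 95% interval 0.15 to 0.32, limma adjusted p = 0.00209), or 17.8% in TPM. This call was kept in 20 of 20 alternative fits at the same limit, with adjusted p between 0.00172 and 0.00907. It was lost with a 2-fold minimum, which is not among these 20. Rop7-I was above Rop7-II by 0.15 (interval 0.07 to 0.24, adjusted p = 0.0212), which did not pass, and which without Rop7-III replicate 3 gave the same difference of 0.15 and an adjusted p of 0.00900. Between Rop7-III and Rop7-I the difference was 0.08, with an interval of -0.00 to 0.16 and an adjusted p of 0.194.

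Cdkn1a, which encodes p21 (chromosome 17, 29090979 to 29100722), the inhibitor best known as a target of p53, was hardly detected. It was at 0.90, 0.67 and 0.88 TPM in the Rop7-I samples, 5.17, 0.07 and 0.84 TPM in those of Rop7-II and 0.40, 0.38 and 0.41 TPM in those of Rop7-III. A single sample, Rop7-II replicate 1, was over 1 TPM, and Cdkn1a entered the test only through it. This is the sample with the highest B-cell and myeloid markers, and without it the gene was not tested. The log2 differences were -0.72 for Rop7-III against Rop7-II, with an interval of -1.87 to 0.43 (limma adjusted p = 0.335), and -0.38 for Rop7-III against Rop7-I (adjusted p = 0.681). All Rop7-III samples were below all Rop7-I samples, at levels under 1 TPM in both. With the B-cell marker level as a covariate, the difference of Rop7-III from Rop7-I was 0.41 (limma adjusted p = 0.458), of the opposite sign. Cdkn1b therefore made up nearly all of the Cip/Kip sum, which was 333 ± 8.03 TPM in Rop7-I, 300.6 ± 1.52 in Rop7-II and 352 ± 17.3 in Rop7-III.

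The largest fitted difference in log2(TPM + 1) among the 10 genes was that of Cdkn2c, which encodes p18 (chromosome 4, 109660876 to 109666756), an INK4 inhibitor. It was at 2.14, 4.01 and 3.45 TPM in the Rop7-I samples, 5.06, 3.73 and 2.54 TPM in those of Rop7-II and 9.69, 7.49 and 7.90 TPM in those of Rop7-III. All 3 Rop7-III samples were above the other 6, as in 9.67% of all tested genes, and Rop7-I and Rop7-II overlapped. The means were 3.20 ± 0.960, 3.78 ± 1.26 and 8.36 ± 1.17 TPM (SD, n = 3 each). Cdkn2c rose by 1.18 on the log2 scale in Rop7-III against Rop7-I (SE 0.22, 95% interval 0.67 to 1.68, limma adjusted p = 0.00955), a ratio of TPM of 2.61. The difference from Rop7-II was of like size, 1.00 (SE 0.22, interval 0.50 to 1.50), with an adjusted p of 0.0110 that narrowly failed to pass, and the ratio of TPM was 2.21. Rop7-I and Rop7-II differed by -0.18 (interval -0.68 to 0.32, adjusted p = 0.636).

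Both Cdkn2c results stood close to the threshold, and the choice of samples and of settings moved them across it. Against Rop7-I the call passed in 8 of 20 alternative settings, with adjusted p between 0.00269 and 0.0412 and log2 differences between 0.98 and 1.43. It was lost with 0.1 TPM added (adjusted p = 0.0121), 0.5 TPM added (0.0108), no filter (0.0219), no trend of the spread (0.0208) or the replicate block (0.0254). It was also lost without Rop7-I replicate 1 (adjusted p = 0.0345), replicate 2 (0.0167) or replicate 3 (0.0259), without Rop7-II replicate 2 (0.0134) and without Rop7-III replicate 1 (0.0412), replicate 2 (0.0290) or replicate 3 (0.0324). Against Rop7-II Cdkn2c passed in 6 of 20 settings, with adjusted p between 0.00296 and 0.0463 and log2 differences between 0.80 and 1.19. Leaving out Rop7-II replicate 1, the sample with the most B-cell and myeloid marker RNA and the highest Cdkn2c of its clone, raised the difference to 1.19 (adjusted p = 0.00457), and without Rop7-I replicate 1 the adjusted p was 0.00834. With the B-cell marker level as a covariate the difference from Rop7-II was 1.17 (adjusted p = 0.00296). With the same covariate the difference from Rop7-I, the clone with more B-cell marker RNA than Rop7-III in every sample, was 1.43 (limma adjusted p = 0.00360). The summed memory-like CD8 markers and 3 of the 7, Cd44 only narrowly, were also highest in Rop7-III, while Eomes was higher in Rop7-I. The part of these markers in the Cdkn2c difference was not tested.

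Cdkn2d, which encodes the related inhibitor p19 (chromosome 9, 21288459 to 21291421), held most of the INK4 transcripts. It was at 135, 119 and 111 TPM in the Rop7-I samples, 124, 121 and 122 TPM in those of Rop7-II and 114, 114 and 113 TPM in those of Rop7-III. Rop7-III was below every Rop7-II sample but within the range of Rop7-I. The log2 difference of Rop7-III from Rop7-II was -0.10 with an interval of -0.24 to 0.03 (limma adjusted p = 0.236), and that from Rop7-I was -0.09 (adjusted p = 0.367). The INK4 sum was 125 ± 11.4, 126 ± 2.53 and 122 ± 1.15 TPM in Rop7-I, Rop7-II and Rop7-III. The share of Cdkn2c in it was 2.62, 2.99 and 6.84% on average, so that the higher Cdkn2c of Rop7-III was a small part of all INK4 transcripts. The ratio of Cdkn2d to Cdkn2c was 41.6 ± 18.6, 35.0 ± 11.9 and 13.8 ± 1.82 in the same order.

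**Figure D3:**
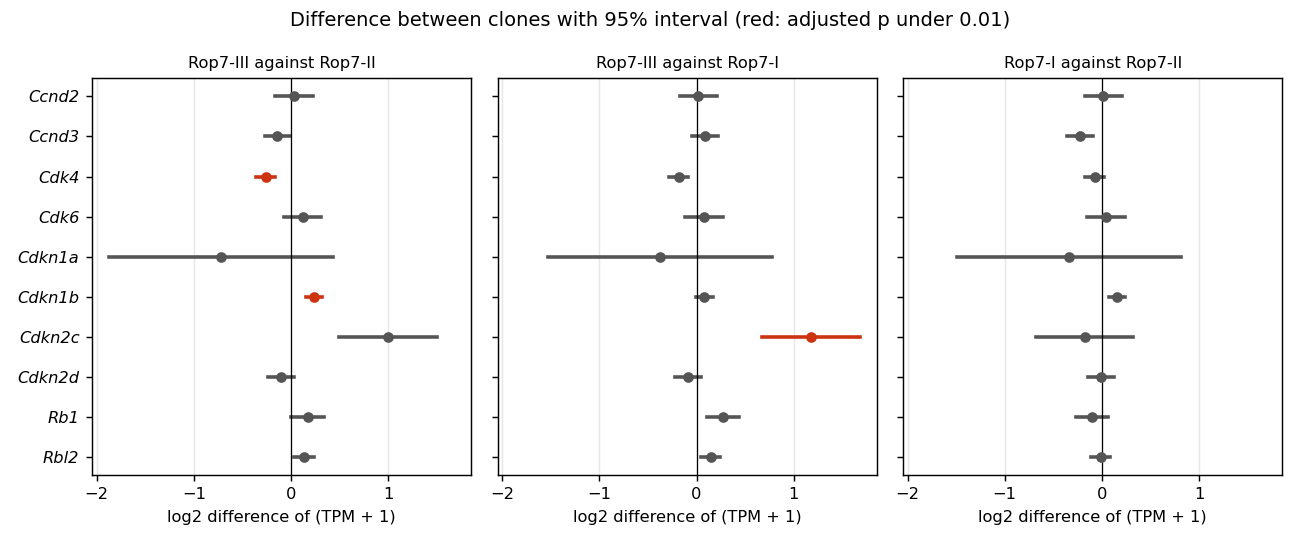
Difference in log2(TPM + 1) between each pair of clones for the 10 genes, as points with 95% intervals from limma, with red for an adjusted p under 0.01. Cdk4 at -0.26 and Cdkn1b at 0.23 pass for Rop7-III against Rop7-II and Cdkn2c at 1.18 for Rop7-III against Rop7-I, and the interval of Cdkn1a is the widest in every panel.

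Pocket proteins hold E2F factors in check, RB in most cells and p130 above all in resting cells. Rb1 (chromosome 14, 73192858 to 73325951) was at 56.8, 63.1 and 64.6 TPM in the Rop7-I samples, 71.3, 60.6 and 66.7 TPM in those of Rop7-II and 74.2, 69.6 and 79.8 TPM in those of Rop7-III. Every Rop7-III sample was above every Rop7-I sample, and Rop7-II overlapped both. The log2 difference of Rop7-III from Rop7-I was 0.27 with an interval of 0.11 to 0.44 and a limma adjusted p of 0.0407, and that from Rop7-II was 0.17 (adjusted p = 0.125), so that neither passed. Lpar6, a receptor gene for lysophosphatidic acid, lies wholly within the bounds of Rb1 and was at 79.6 ± 3.32, 93.6 ± 3.86 and 98.3 ± 0.868 TPM in Rop7-I, Rop7-II and Rop7-III. Lpar6 rose by 0.30 in Rop7-III against Rop7-I (adjusted p = 0.00191). The overlap is one of gene bounds, introns included. Whether exons of both genes overlap, so that reads could be confused, was not examined. Rb1 is 19.0 Mb from the Tcra locus, which each line carries as its own rearranged copy. Ccnd2 and Cdkn1b are on the chromosome of the Tcrb locus, which is likewise rearranged in each line, at 85.6 and 93.4 Mb from it. The part of linkage in the differences was not tested.

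Rbl2, which encodes p130 (chromosome 8, 91070057 to 91123844), was at 86.4, 88.1 and 84.6 TPM in the Rop7-I samples, 83.6, 91.4 and 86.6 TPM in those of Rop7-II and 95.4, 91.5 and 99.9 TPM in those of Rop7-III. All Rop7-III samples were above the other 6, though the lowest of them, at 91.53 TPM, exceeded the highest Rop7-II sample, at 91.42 TPM, only narrowly. The log2 differences were 0.13 from Rop7-II (interval 0.03 to 0.23, limma adjusted p = 0.0563) and 0.14 from Rop7-I (interval 0.05 to 0.24, adjusted p = 0.0602), and neither passed. Rbl2 shares 12064 bases of its gene bounds, introns included, with Aktip, which was at 23.4 to 26.0 TPM by clone mean and did not pass in any pair. The sum of both pocket proteins was 148 ± 4.17, 153 ± 1.39 and 170 ± 9.30 TPM in Rop7-I, Rop7-II and Rop7-III.

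Counted by whether the samples of a pair of clones stood apart, 5 of the 10 genes did so for Rop7-III against Rop7-II (40.7% of all tested genes), 5 for Rop7-III against Rop7-I (38.2%) and 2 for Rop7-I against Rop7-II (35%). With 10 genes, these counts lie near the shares of all tested genes, and no pattern is read from them. The first count includes Rbl2, whose samples stood apart by only 91.53 against 91.42 TPM. The second includes Cdkn1a, which was under 1 TPM in every sample of both clones. Ratios of inhibitor transcripts to those of kinases and cyclins put the main differences side by side, without a test. Cdkn1b to Cdk4 was 2.52 ± 0.176 in Rop7-I, 2.15 ± 0.0911 in Rop7-II and 3.03 ± 0.120 in Rop7-III, and the 3 Rop7-III values, 2.92, 3.01 and 3.16, were all above the highest other value of 2.71. Both genes of this ratio had passed in opposite directions for Rop7-III against Rop7-II. That the ratio stands apart in that pair follows from those calls and is no further result. Cdkn1b to Ccnd3 was 2.07 ± 0.109, 1.59 ± 0.133 and 2.06 ± 0.0636 in the same order, where Rop7-II was the clone that stood apart. Cdkn1b to Ccnd2 ran from 4.44 to 6.10 over all samples.

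The genes with the most similar pattern to the 3 that passed the F test were found by the root mean square difference of centred log2(TPM + 1) over the 9 samples. Cdkn2c was followed most closely by Marcks, a substrate of protein kinase C, at 0.14 and with means of 7.40, 7.60 and 17.2 TPM in Rop7-I, Rop7-II and Rop7-III. Plod2, a collagen lysyl hydroxylase (1.30, 1.49 and 3.69 TPM), and Bcl2l2, a survival factor of the BCL2 family (0.46, 1.11 and 2.62 TPM), both lay at 0.21, where Cdkn2c itself varied by 0.58. For Cdk4 the nearest were Gnl1, Csrp2bp and Sep15, each at 0.03 against a variation of 0.12 in Cdk4. For Cdkn1b they were Tmem106b at 0.02 and Camsap2 and Arid4b at 0.03, against 0.10. The distances of the last genes are small because their own variation is small.

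Other genes of the same pathway were examined in 7 lists with 60 genes, of which 54 were tested. Cdkn1c, Cdkn2a, Cdkn2b, E2f7, E2f8 and Klf4 did not exceed 1 TPM in any sample and were left out, so that p18 and p19 were the INK4 transcripts tested. Between Rop7-III and Rop7-II 9 of 54 passed, 4 as higher and 5 as lower (16.7%, beside 12.3% of all tested genes). Between Rop7-III and Rop7-I 4 passed, all as higher, and between Rop7-I and Rop7-II 2 passed as higher and 2 as lower (7.41% in each, beside 4.85% and 7.53%).

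Among the remaining cyclins, kinases, inhibitors and pocket proteins, 1 of 6 tested passed for Rop7-III against Rop7-II, beside 12.3% of all tested genes. It was 0 of 6 for Rop7-III against Rop7-I and for Rop7-I against Rop7-II, beside 4.85% and 7.53%. The gene that passed was Ccna2, cyclin A2 of S and G2 phase, at 3.44 ± 1.54 TPM in Rop7-III and 0.72 ± 0.282 in Rop7-II. This was a rise of 1.32 on the log2 scale (limma adjusted p = 0.00662). In Rop7-I it was at 0.953 ± 0.300 TPM, and the difference of 1.13 from Rop7-III did not pass (adjusted p = 0.0232). Its means in Rop7-I and Rop7-II were thus under 1 TPM. Of 8 tested E2F and DP genes 1 passed for Rop7-III against Rop7-II, again beside 12.3% of all tested genes, and 0 in the other pairs. This was E2f2, lower in Rop7-III (5.65 ± 0.274 TPM) than in Rop7-II (8.87 ± 1.14 TPM), at -0.56 (limma adjusted p = 0.00570). With so few genes, no pattern is read from these counts. None of the 6 genes of the MuvB complex, which p130 joins in resting cells, and of its partners passed limma in any pair, and 0 had an unadjusted p under 0.05. Of 4 genes that activate CDKs 0 passed limma, with an unadjusted p under 0.05 in 1 of them each for Rop7-III against Rop7-II and Rop7-I against Rop7-II. An unadjusted p under 0.05 was found in 37.8% of all tested genes for Rop7-III against Rop7-II. That share was 28% for Rop7-III against Rop7-I and 32.1% for Rop7-I against Rop7-II. With 6 and 4 genes, no pattern is read from these counts.

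Of 8 genes for the turnover of p27 and cyclins, Fbxw7, the substrate receptor that marks cyclin E for destruction, was the one that passed. Its clone means were 23.7 ± 0.699, 19.7 ± 0.275 and 25.1 ± 0.708 TPM for Rop7-I, Rop7-II and Rop7-III. Fbxw7 was above Rop7-II by 0.34 in Rop7-III (limma adjusted p = 8.92e-04) and by 0.26 in Rop7-I (adjusted p = 0.00564). In each of these pairs 1 of 8 passed, beside 12.3% and 7.53% of all tested genes. For Rop7-III against Rop7-I it was 0 of 8, beside 4.85%. Skp2, the substrate receptor that marks p27 for destruction, was at 2.71 ± 0.271, 3.05 ± 0.318 and 3.07 ± 0.156 TPM in Rop7-III, Rop7-I and Rop7-II and did not pass in any pair.

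Upstream transcription factors differed in several directions. Smad3, which carries TGF-beta signals, was higher in Rop7-III (29.4 ± 2.58 TPM) than in Rop7-II (17.5 ± 1.67 TPM) by 0.72 and than in Rop7-I (20.1 ± 1.26 TPM) by 0.53 (limma adjusted p = 4.14e-04 and 0.00439). Foxo1, an activator of Cdkn1b in resting T cells, was at 141 ± 3.61 TPM in Rop7-III and 117 ± 3.25 TPM in Rop7-I, a rise of 0.27 (adjusted p = 0.00777). In Rop7-II, the clone with the lowest Cdkn1b, Foxo1 was at 138 ± 9.04 TPM, and Rop7-III differed from it by 0.03 (adjusted p = 0.641). Whether Foxo1 bears on the Cdkn1b differences was not tested. Klf2, a quiescence factor of naive T cells, was at 817 ± 48.6 TPM in Rop7-I, 1311 ± 91.8 in Rop7-II and 1166 ± 84.4 in Rop7-III, and the log2 difference of Rop7-I from Rop7-II was -0.68 (adjusted p = 2.62e-04). Klf2 in Rop7-III was above Rop7-I by 0.51 (adjusted p = 0.00162). Myc was higher in Rop7-I (64.3 ± 1.40 TPM) than in Rop7-II (46.1 ± 4.93 TPM) by 0.48 (adjusted p = 0.00465).

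Of 14 S-phase genes that E2F factors drive, 4 passed as lower and 1 as higher in Rop7-III against Rop7-II. Of all tested genes, 5.89% passed as lower and 6.39% as higher in this pair. Mcm6, Mcm5 and Mcm2, subunits of the replicative helicase, were at 50.7 ± 0.879, 27.6 ± 1.25 and 39.6 ± 2.18 TPM in Rop7-III. In Rop7-II they were at 95.0 ± 14.3, 37.0 ± 0.985 and 49.4 ± 2.99 TPM. The log2 differences were -0.88, -0.41 and -0.31 (limma adjusted p = 1.95e-04, 5.73e-04 and 0.00461). Pcna, the sliding clamp of the polymerase, was at 187 ± 2.88 and 222 ± 12.6 TPM, a difference of -0.25 (limma adjusted p = 0.00318). Rrm2, the small subunit of ribonucleotide reductase, went the other way, from 2.77 ± 0.456 TPM in Rop7-II to 6.01 ± 0.602 TPM in Rop7-III (0.90, adjusted p = 0.00106), and was higher than in Rop7-I by 0.93 (adjusted p = 0.00175). Mcm6 was also lower in Rop7-I, at 49.4 TPM, than in Rop7-II (-0.92). Mcm2 was named after its value was seen, since it completes the count. The members of this list thus did not move together. The part of the B-cell and myeloid marker RNA of Rop7-II replicate 1 in these differences was not tested. Mki67, which is transcribed in dividing cells, was at 1.48, 1.68 and 2.72 TPM in the Rop7-I samples, 1.75, 1.45 and 1.07 TPM in those of Rop7-II and 6.60, 8.51 and 10.5 TPM in those of Rop7-III, with all Rop7-III samples above the rest as for Cdkn2c.

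**Figure D4:**
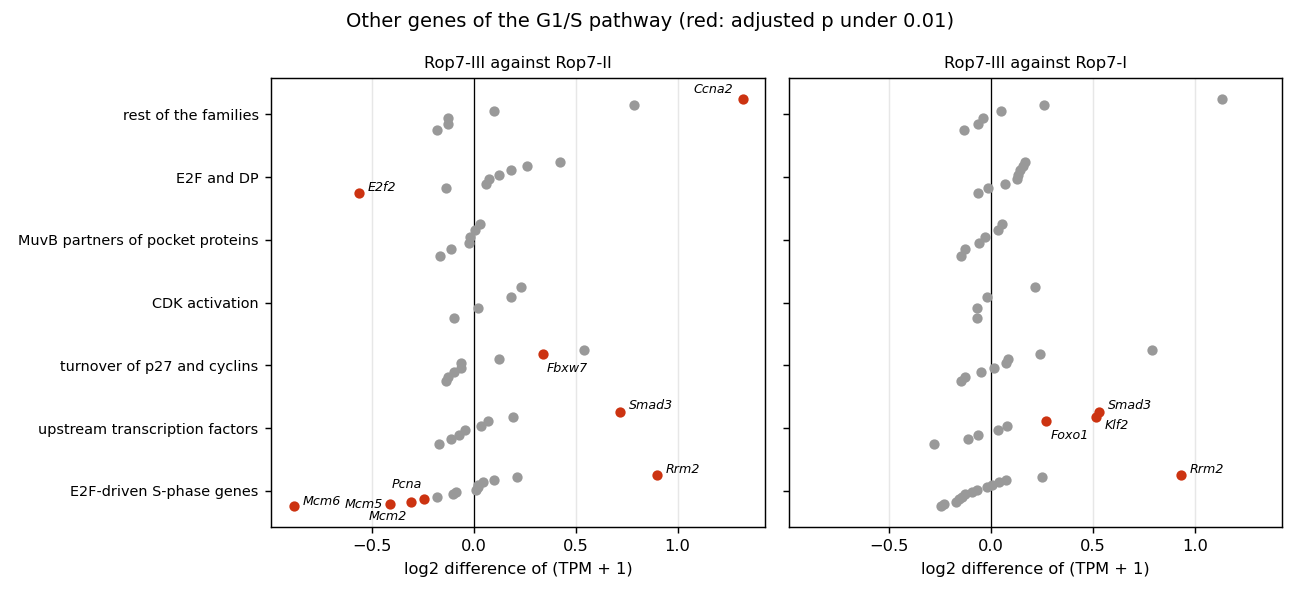
Difference in log2(TPM + 1) of Rop7-III from Rop7-II and from Rop7-I for the 54 tested genes of 7 pathway lists, 1 point per gene with its vertical place inside a list set by rank only, and red for an adjusted p under 0.01. In the left panel 9 genes are red on both sides of 0, from Mcm6 at -0.88 to Ccna2 at 1.32, and in the right panel 4 are red, all above 0.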

How the data were processed

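Per the labels, polyadenylated RNA was sequenced from 3 biological replicates of each of 3 clones. The authors aligned single-end reads of 100 bp, not strand-specific, to RefSeq genes of mm10 with RSEM 1.2.11 and deposited TPM values, with DESeq2 1.8.1 named for their tests. TPM hold no counts, so that DESeq2 was not used here, and the paper gives only a typical read number, so that the depth of each sample is not known. Samples were grouped by title.

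Here log2(TPM + 1) was fitted with limma 3.58.1 in R 4.3.3, with a trend of the spread, to all 9 samples and the 12115 genes with a maximum TPM over 1, and adjusted by Benjamini-Hochberg within each pair of clones, with a limit of 0.01. The F test used the same fit. Differences are in log2(TPM + 1), which understates those of low genes. The script was tested on simulated data. The 10 genes, the lists and the markers were chosen with earlier results of these data known. Named were the 10 genes, up to 4 passing genes per pathway list, the 3 most similar genes for each of up to 3 genes past the F test, and Mki67. Skp2, Mcm2, genes that overlap the 10 and single markers were named after their values were seen. Positions, overlaps and promoters are from RefSeq on GRCm38.p6, the assembly of mm10. Alternatives were 0.1 or 0.5 TPM added, another filter (none, or 1 TPM or more throughout), a common median or quantile normalization, no trend, weighted samples, fits of single pairs, a replicate block, a B-cell covariate, omission of each sample, an adjusted p under 0.05 and a 2-fold minimum.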

Additional observations from a re-analysis of the deposited data

How the results depend on the processing

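Of 594 log2 differences of the 10 genes under alternative settings, 573 stayed on their side of the threshold, 13 lost a call and 8 gained one, and no called difference turned its direction. The 0.05 limit and the 2-fold minimum are not among these settings. Differences that did not pass could change sign, as that of Cdkn1a between Rop7-III and Rop7-I, which ran from -0.87 to 0.41. The count of the 10 genes that passed for Rop7-III against Rop7-II (2) was 0 with a 2-fold minimum and 1 to 3 when each sample was left out, with the lowest without Rop7-III replicate 2. That for Rop7-III against Rop7-I (1) was 0 with 0.1 or 0.5 TPM added, without a filter, without the trend and with the replicate block, 3 at an adjusted p under 0.05 and 0 to 1 when each sample was left out. That for Rop7-I against Rop7-II (0) was 2 at an adjusted p under 0.05 and 0 to 1 when each sample was left out, with 1 without Rop7-II replicate 2 or Rop7-III replicate 3. The F test (3) gave 0 without the trend, 1 with the replicate block, 5 at an adjusted p under 0.05 and 0 to 2 when each sample was left out, with 0 where Rop7-III replicate 1 was omitted, and 1 on omission of Rop7-I replicate 1, of Rop7-II replicate 2 or of replicate 2 or 3 of Rop7-III. The cause was not tested.

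Over all tested genes, 1488 passed for Rop7-III against Rop7-II, 932 when only the clones compared were fitted, 3041 at an adjusted p under 0.05, 206 with a 2-fold minimum and 834 to 1315 when each sample was left out. For Rop7-III against Rop7-I it was 588, and 1062 with sample weights, 924 with only the clones compared, 373 with the replicate block, 1586 at an adjusted p under 0.05, 128 with a 2-fold minimum and 258 to 830 when each sample was left out. For Rop7-I against Rop7-II it was 912, and 600 without the trend, 415 with only the clones compared, 2163 at an adjusted p under 0.05, 115 with a 2-fold minimum and 416 to 875 when each sample was left out. Quantile normalization moved the Cip/Kip sum of Rop7-II to 298 TPM and its pocket protein sum to 152 TPM.

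The labels give the clones the same replicate numbers but do not say that a number marks a shared mouse or day. Deviations from the clone mean correlated between -0.39 and 0.11 for samples with the same number and between -0.18 and 0.32 for different numbers, and 1 of 9 samples was closest to its own number, so that the numbers were not taken as pairs. With 3 samples a clone and no read counts per gene, the 95% intervals given show how precisely each difference was estimated. They are not adjusted for the number of genes tested, and several that exclude 0 belong to differences that did not pass.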
